A study of Homo sapiens with 12 samples.

Results

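Keratins and vimentin are intermediate filament proteins, and their transcripts were followed here in 2 human cell lines, labelled as liver cancer, in which CD146 was lowered or raised. The 10 genes are 9 keratins (KRT7, KRT8, KRT17, KRT18, KRT19, KRT20, KRT23, KRT80 and KRT81) and vimentin (VIM), taken by symbol from the 61806 gene IDs of the deposited count table. They were chosen by their FPKM levels and fold changes in the same libraries, so their levels and changes are given as a description, without printed p-values. A gene is said to be called where edgeR's quasi-likelihood test gave an adjusted p under 0.05 over all genes, and for the members such a call also only describes values that helped to choose them. Poly(A)-selected RNA-seq was available for 12 libraries in 4 groups of 3. CD146 was knocked down in cells labelled Hep3B by a tetracycline-inducible shRNA, with a control shRNA induced in the same way, and HepG2 cells carried the pLVX vector or a vector with CD146. Hep3B and HepG2 are the names of established liver tumour lines, and the cells so labelled were grown in different media (DMEM and MEM). Line, medium and method of perturbation therefore cannot be told apart, and neither control group is an untransduced parental line. The labels do not state that the 3 libraries of a group came from separate cultures or, for the shRNA groups, whether the numbers 1 to 3 denote hairpins, so the spread between libraries may be technical.

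Library totals were between 12.8M and 18.1M counts (M, 1e6). The control shRNA libraries held 114, 112 and 119 TMM-scaled counts per 1e6 (CPM) of MCAM, the gene of CD146, and those of the CD146 shRNA 22.0, 24.2 and 26.9 CPM. In HepG2 the pLVX libraries held 22.9, 23.5 and 23.7 CPM and those of the CD146 vector 1946, 1954 and 1897 CPM. The label Hep3B was not borne out by hepatocyte genes: with the control shRNA none of 17 hepatocyte markers reached 1 FPKM (fragments per kilobase of gene and 1e6 fragments, as deposited), and their sum was 0.94 to 1.16 FPKM. With the CD146 shRNA the sum was 1.33 to 18.03 FPKM, and the highest library, replicate 3, held 298 ALB counts where the other 5 libraries held 0 to 5. HepG2 had 16 of the 17 markers above 1 FPKM and sums of 13902 to 16377 FPKM. The first 6 libraries are accordingly called the libraries labelled Hep3B. Basal and squamous epithelial markers, KRT5, KRT14 and KRT6A among them, reached 1 FPKM in no group (0 of 7), endothelial markers in 0 to 2 of 6, and leukocyte markers in 0 to 1 of 6. In HepG2 that leukocyte marker was LYZ. The leukocyte list there summed to 738 to 776 FPKM with pLVX and 573 to 613 FPKM with the CD146 vector.

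Intermediate filaments are assembled from coiled-coil proteins and give epithelial and mesenchymal cells mechanical strength. Keratin filaments are built from obligate pairs of one acidic type I chain (here KRT17, KRT18, KRT19, KRT20 and KRT23) and one basic or neutral type II chain (here KRT7, KRT8, KRT80 and KRT81), whereas vimentin, a type III protein, can assemble alone. Hepatocytes make the simple-epithelial pair KRT8 and KRT18, bile duct cells add KRT7 and KRT19, and vimentin is typical of mesenchymal cells and of many cultured cells.

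Over the principal GENCODE version 29 transcripts (GRCh38) the members were mostly separable. KRT19, KRT20 and KRT80 had no 100-base window found in the transcripts of another gene, and in KRT17 and KRT23 the share was 0.353% and 0.477%. It was 6.73% in KRT8, 7.67% in KRT7 (with the antisense gene KRT7-AS), 16.6% in KRT18 (with KRT8, whose gene overlaps it by 1084 bases on the other strand), 30.3% in KRT81 (mostly with KRT86) and 33.7% in VIM (with VIM-AS1). The strand setting of the counting is not given in the sources used here, so reads of these overlaps could not be assigned with certainty. Counts assigned to 51 KRT8 pseudogenes summed to 0.997 to 1.87% of the KRT8 count, and those of 67 KRT18 pseudogenes to 0.598 to 1.60% of the KRT18 count. KRT7-AS had 5.06 to 7.75% of the KRT7 count in the libraries labelled Hep3B.

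The 2 lines shared the KRT8 and KRT18 pair and differed in almost everything added to it. With the control shRNA, KRT8 was at 97.8, 98.8 and 93.4 FPKM and KRT18 at 149, 154 and 146 FPKM. In HepG2 with pLVX, KRT8 was at 58.4, 56.9 and 54.0 FPKM and KRT18 at 57.2, 57.7 and 53.8 FPKM. Both were higher in all 3 libraries labelled Hep3B, 1.71-fold for KRT8 (95% counting interval 1.68 to 1.74) and 2.66-fold for KRT18 (2.59 to 2.73). These ratios use the summed counts of the control groups over their unscaled totals, as FPKM does, with intervals that cover counting error only. With TMM scaling over the 12 libraries the gap was smaller, with log2 values of -0.46 ± 0.04 (SE) for KRT8 and -1.10 ± 0.04 for KRT18, HepG2 minus the libraries labelled Hep3B.

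The biliary keratins KRT7 and KRT19 were each carried by a different line. KRT7, a type II chain of ducts and glands, was at 32.6, 33.9 and 33.1 FPKM with the control shRNA and at 0.02, 0.03 and 0.02 FPKM in HepG2 with pLVX, where it had 4 counts in all. The ratio was 1443, with an interval of 563 to 5296 set by those 4 counts. KRT19, a small type I chain of ducts and hepatic progenitors, was at 11.8, 11.1 and 11.5 FPKM in HepG2 with pLVX and at 0.08, 0.06 and 0 FPKM with the control shRNA, from 3, 2 and 0 counts. It was 252-fold higher in HepG2 (108 to 776). Of 8 cholangiocyte markers that include this pair, 4 reached 1 FPKM with the control shRNA and 4 with pLVX. EPCAM and SOX9 did so in both, AQP1 with the control shRNA and SPP1 with pLVX.

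VIM, at 103, 104 and 103 FPKM with the control shRNA, was the second most abundant member there after KRT18. In HepG2 with pLVX it was at 0.45, 0.48 and 0.33 FPKM, 243-fold lower (199 to 300). Other mesenchymal genes did not share this level: of 10 mesenchymal and stellate markers only COL1A1 reached 1 FPKM with the control shRNA, against PDGFRB, ACTA2 and TAGLN with pLVX. Their summed levels were 8.36 to 9.63 FPKM with the control shRNA and 11.0 to 11.1 FPKM with pLVX. In bulk RNA, fewer cells that express a gene and less RNA per cell cannot be told apart.

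The remaining members were minor chains. KRT80, a type II keratin that lies at the end of the chromosome 12 keratin genes, was at 5.21, 4.34 and 4.39 FPKM with the control shRNA and at 0.16, 0.05 and 0.10 FPKM with pLVX, a ratio of 46.7 (29.7 to 77.8). KRT17, a type I keratin of basal cells and of wounded epithelium, was at 3.5, 3.61 and 3.67 FPKM against 0.21, 0.28 and 0.12 FPKM, a ratio of 17.4 (11.8 to 26.6). KRT20, the type I keratin of intestinal epithelium and urothelium, was at 0.63, 0.46 and 0.53 FPKM and listed at 0 in all 3 pLVX libraries. Its ratio was 15.1 against a floor of 3 counts over the group. The lower counting limit of the ratio, from 49 against 0 counts, was 11.8. Of 8 intestinal markers, 5 were tested between the lines. MUC2 and CDH17 were called lower in HepG2 as KRT20 was, and VIL1 and FABP1 higher. By level, CDH17 was the only other one above 1 FPKM in the libraries labelled Hep3B, and VIL1 and FABP1 were above it in HepG2. KRT23, a type I keratin, was higher in HepG2, at 0.73, 0.55 and 0.39 FPKM, and had 2 counts in all with the control shRNA, which gives a ratio of 37.9 with a wide interval (10.1 to 319). KRT81, a hair-type keratin, had 4 to 6 counts per library with the control shRNA and 0 in HepG2, too few to enter any fit.

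**Figure D1:**
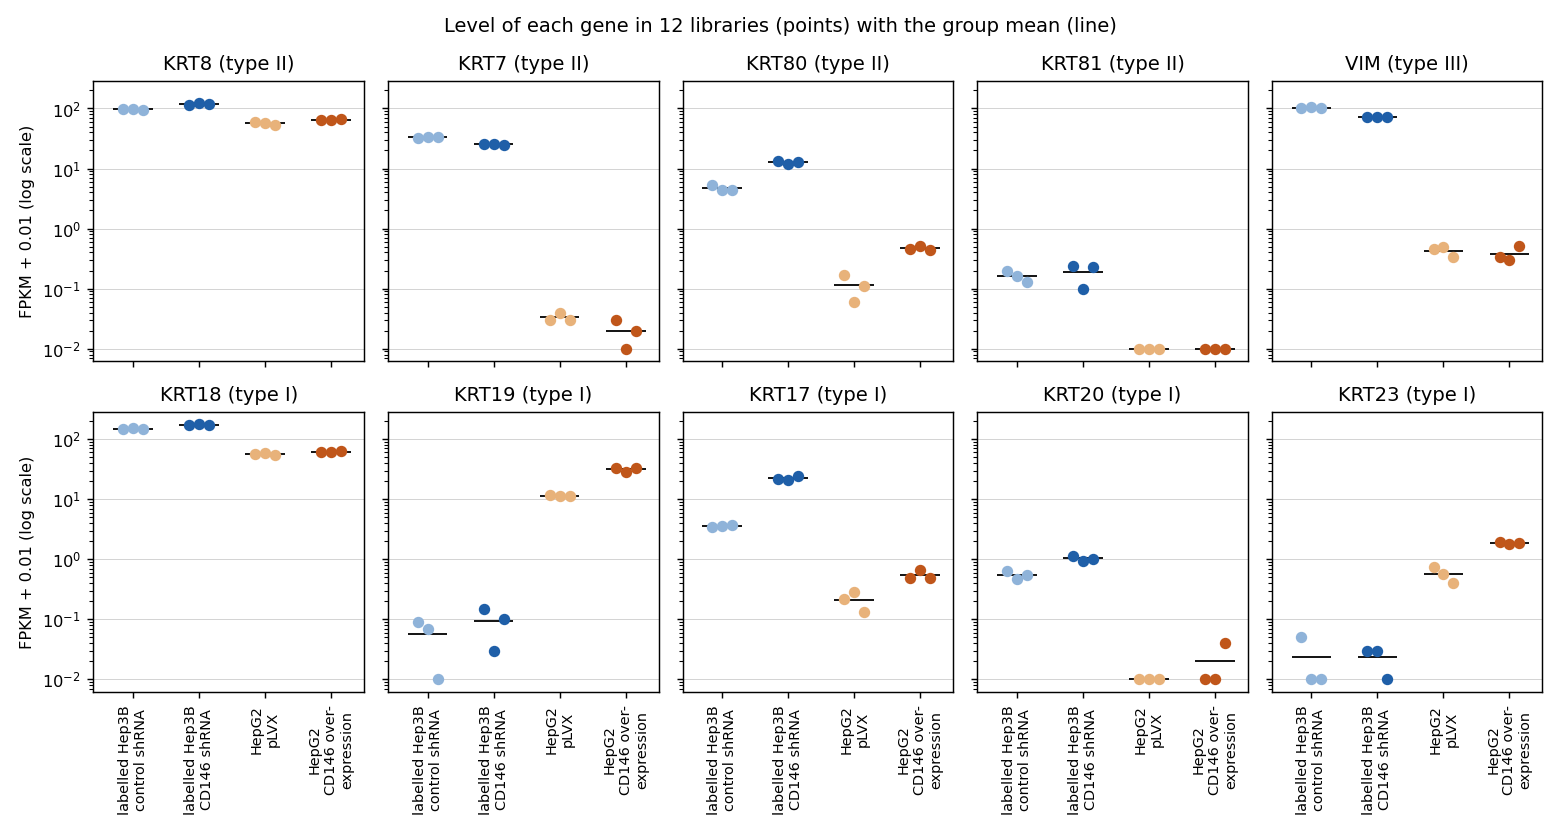
Deposited FPKM of each member in each of the 12 libraries on a log axis, with each group in its own colour. The value plotted is FPKM + 0.01 so that 0 can be drawn. KRT8 and KRT18 sit at 53.8 FPKM or above in every library, KRT7 and VIM are high only in the libraries labelled Hep3B, and KRT19 only in HepG2. KRT23 is higher in HepG2 than in the libraries labelled Hep3B, at no more than 1.9 FPKM.

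In rank order of FPKM with the control shRNA, KRT18 was followed by VIM, KRT8, KRT7, KRT80, KRT17, KRT20, KRT81, KRT19 and KRT23. The libraries of each of the first 7 did not overlap with those of its neighbours, while the last 3 rested on 0 to 6 counts per library. With pLVX, KRT8 and KRT18 overlapped at the top, KRT19 stood alone beneath them, KRT23 overlapped with VIM, and KRT17 overlapped with KRT80. KRT7 followed, and KRT20 and KRT81 were listed at 0. In the fit over all 12 libraries 9 members were tested between the control groups. Of these, 7 were lower and 2 (KRT19 and KRT23) higher in HepG2 at an adjusted p under 0.05 in edgeR's quasi-likelihood test, where 83.2% of all genes tested were called, 39.7% higher and 43.4% lower in HepG2. KRT7 and KRT20 passed the filter on low counts only through the libraries labelled Hep3B, and KRT19 and KRT23 only through HepG2. This fixes the direction of these genes. KRT17 and KRT80 did not reach the count minimum in all pLVX libraries.

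Summed over all 29 type I and all 26 type II keratin genes, transcripts of the 2 types were present in similar and not equal amounts. Type I sums were 181 ± 4.51 FPKM (SD, n = 3) with the control shRNA and 72.2 ± 2.28 FPKM with pLVX, and type II sums were 135 ± 3.31 and 56.6 ± 2.23 FPKM. The ratio of type I to type II was 1.34 ± 0.0113 with the control shRNA and 1.28 ± 0.0246 with pLVX. After knockdown it was 1.58 ± 0.0209, and with the CD146 vector 1.54 ± 0.0272. In each line the 3 treated libraries thus lay above the 3 controls, although CD146 moved in opposite directions. The smallest two-sided p that an exact permutation test of 3 against 3 allows is 0.10, and none is given for this ratio because the members make up most of it.

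The chains behind that ratio differed between the lines. KRT7 made up 24.6 ± 0.667% of type II transcripts with the control shRNA and 16.0 ± 0.365% after knockdown, and KRT80 3.44% and 8.08%. In HepG2, KRT8 alone made up 99.8% of type II transcripts with pLVX and 99.2% with the CD146 vector. Among type I transcripts in HepG2, the share of KRT19 was 15.9 ± 0.773% with pLVX and 31.5 ± 1.72% with the CD146 vector, and that of KRT18 77.9% and 62.3%. In the libraries labelled Hep3B the share of KRT18 was 82.6% before and 69.4% after knockdown, that of KRT17 1.98% and 8.99%, and that of KRT13, a keratin of stratified mucosa, 5.78% and 13.9%. Vimentin relative to all keratins was 0.328 ± 0.00718 with the control shRNA and 0.178 ± 0.00454 after knockdown. It was 0.00325 and 0.00224 in the HepG2 groups.

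**Figure D2:**
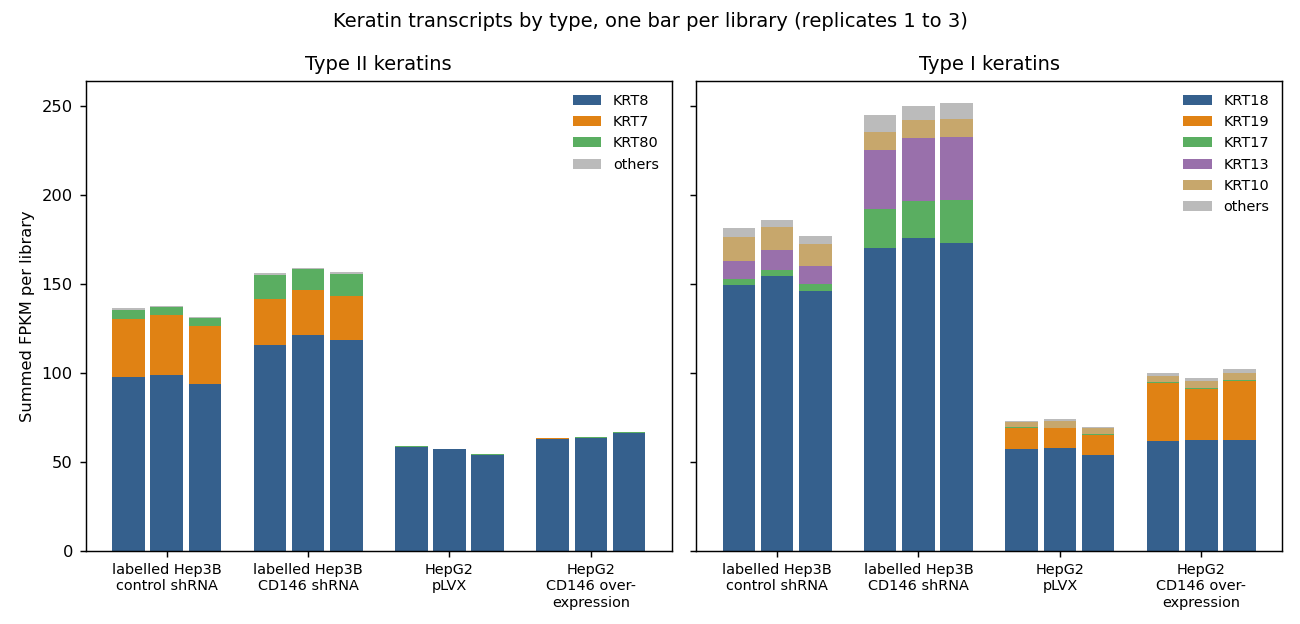
Summed FPKM of type II (left) and type I (right) keratin transcripts, 1 stacked bar per library, with the colours giving each gene's part. KRT18 and KRT8 lead everywhere, with KRT7, KRT80, KRT13 and KRT17 added in the libraries labelled Hep3B and KRT19 in HepG2, where its mean share is 31.5% with the CD146 vector.

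When CD146 was lowered in the libraries labelled Hep3B, most of the expressed keratin members rose while KRT7 and VIM fell. Of the 10 members 7 passed the filter on low counts, and all 7 were called at an adjusted p under 0.05, 5 higher and 2 lower. Among all 16968 genes tested 55.3% were called, 26.8% higher and 28.5% lower, so a call by itself was common in this comparison. The median log2 fold change was 0.33 over the 7 members and 0.00 over all genes. Both are descriptions, since the members were picked with such values known. Each log2 change below is from the edgeR fit of TMM-scaled counts, CD146 shRNA against control shRNA.

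The widest change was that of KRT17. It was at 22.0, 21.1 and 24.1 FPKM with the CD146 shRNA, against 3.5 to 3.67 FPKM with the control shRNA, a log2 fold change of 2.67 ± 0.07 (SE). KRT80 was at 13.3, 12.1 and 12.6 FPKM with the CD146 shRNA, against 4.34 to 5.21 FPKM, a change of 1.48 ± 0.07. KRT20 was at 1.12, 0.94 and 1.00 FPKM, against 0.46 to 0.63 FPKM, a change of 0.95 ± 0.27. In these minor chains every CD146 shRNA library lay above every control library.

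The main pair moved less. KRT8 was at 116, 121 and 118 FPKM with the CD146 shRNA, a change of 0.33 ± 0.04, and KRT18 at 169.9, 176 and 173 FPKM, a change of 0.24 ± 0.04. The groups did not overlap for either gene. The FPKM of KRT18 relative to that of KRT8 was 1.55 ± 0.0211 in the control libraries and 1.46 ± 0.00843 after knockdown. The processed pseudogene KRT18P62 had 2, 5 and 4 counts in the control libraries and 35, 31 and 29 after knockdown, a change of 3.03 ± 0.38 with a direction fixed by the filter, which it passed only through the CD146 shRNA group.

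KRT7 and VIM went the other way. KRT7 was at 25.6, 25.3 and 24.7 FPKM with the CD146 shRNA, all below the control libraries, a change of -0.36 ± 0.04. VIM was at 73.3, 71.4 and 71.8 FPKM, again without overlap, a change of -0.48 ± 0.04. The mesenchymal and stellate markers summed to 12.1 to 15 FPKM with the CD146 shRNA against 8.36 to 9.63 FPKM with the control shRNA. Endothelial markers summed to 9.49 to 10.1 against 5.58 to 6.17 FPKM, with CDH5 and EGFL7 above 1 FPKM. Cholangiocyte markers, KRT7 among them, summed to 50.11 to 51.95 against 57.55 to 62.32 FPKM. Of 5 tested, KRT7 and SOX9 were called lower and 3 were not called, where 28.5% of all genes were lower. The part of these lists in the members' changes was not tested. KRT19 had 6, 1 and 3 counts with the CD146 shRNA, KRT23 had 1, 1 and 0, and KRT81 had 8, 3 and 6, so that no change could be seen at this depth.

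When CD146 was raised in HepG2, KRT17, KRT19, KRT23 and KRT80 rose, the main pair hardly moved, and VIM, low in both groups, was not called. Of the 10 members 7 passed the filter, and 5 (KRT8, KRT17, KRT19, KRT23 and KRT80) were called, all higher, while KRT18 and VIM were not. Of the 15300 genes tested 19.8% were called, 9.55% higher and 10.3% lower. The median log2 fold change was 1.28 over the 7 members and 0.00 over all genes. KRT17 and KRT80 passed the filter only because of the CD146 vector group, since 1 pLVX library each reached the count minimum, and this choice fixes their direction. Over the 5 members without them the median was 0.11, with 3 called higher. Without pLVX replicate 3 the number of members called was 3, as KRT8 and KRT17 then missed the threshold.

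KRT19, which carried the largest absolute change, was at 32.6, 28.7 and 33.0 FPKM with the CD146 vector against 11.1 to 11.8 FPKM with pLVX, a log2 fold change of 1.39 ± 0.06. KRT23 was at 1.9, 1.81 and 1.87 FPKM against 0.39 to 0.73 FPKM, a change of 1.68 ± 0.20. KRT80 was at 0.45, 0.50 and 0.43 FPKM against 0.05 to 0.16 FPKM, a change of 2.11 ± 0.35. Its levels stayed under those of every library labelled Hep3B. KRT17 rose from 8, 14 and 5 counts to 22, 26 and 24 counts, or 0.48, 0.65 and 0.48 FPKM, a change of 1.28 ± 0.35. This change was 1.02 without pLVX replicate 3.

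The main pair in HepG2 moved little. KRT8 was at 63.0, 63.4 and 66.1 FPKM with the CD146 vector, a log2 fold change of 0.11 ± 0.03, and the libraries did not overlap with pLVX. The value was 0.08 without pLVX replicate 3 and 0.09 without CD146 vector replicate 3, and neither of these was called. KRT18 was at 61.8, 62.0 and 62.5 FPKM, a change of 0.07 ± 0.04 that was not called. VIM was at 0.32, 0.29 and 0.50 FPKM, overlapping with pLVX, with a change of -0.24 ± 0.25 that was not called. Mesenchymal and stellate markers summed to 14.98 to 16.35 FPKM with the CD146 vector against 11 to 11.05 FPKM with pLVX. Of 5 tested, ACTA2 and TAGLN were called higher, PDGFRB lower and 2 were not called. Over all genes 9.55% were higher and 10.3% lower. KRT7 had 1, 0 and 1 counts, KRT81 had none, and KRT20 was listed at 0.03 FPKM in 1 library and at 0 in the others. Cholangiocyte markers as a list summed to 270.1 to 277 FPKM with the CD146 vector against 192 to 209 FPKM with pLVX. Of the 8, 4 were tested (KRT19, EPCAM, SOX9 and SPP1) and all 4 were called higher, where 9.55% of all genes were. KRT19 is itself in that list, with means of 31.4 and 11.5 FPKM. Hepatocyte markers summed to 13902 to 13990 against 15960 to 16377 FPKM. In that sum ALB had a mean of 4517 against 6237 FPKM and AFP 1365 against 1875 FPKM. The list did not move as one: of 16 tested, 8 were called lower, 3 higher (FGA, FGG and HNF4A) and 5 were not called. The part of these markers in the rise of KRT19 was not tested.

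**Figure D3:**
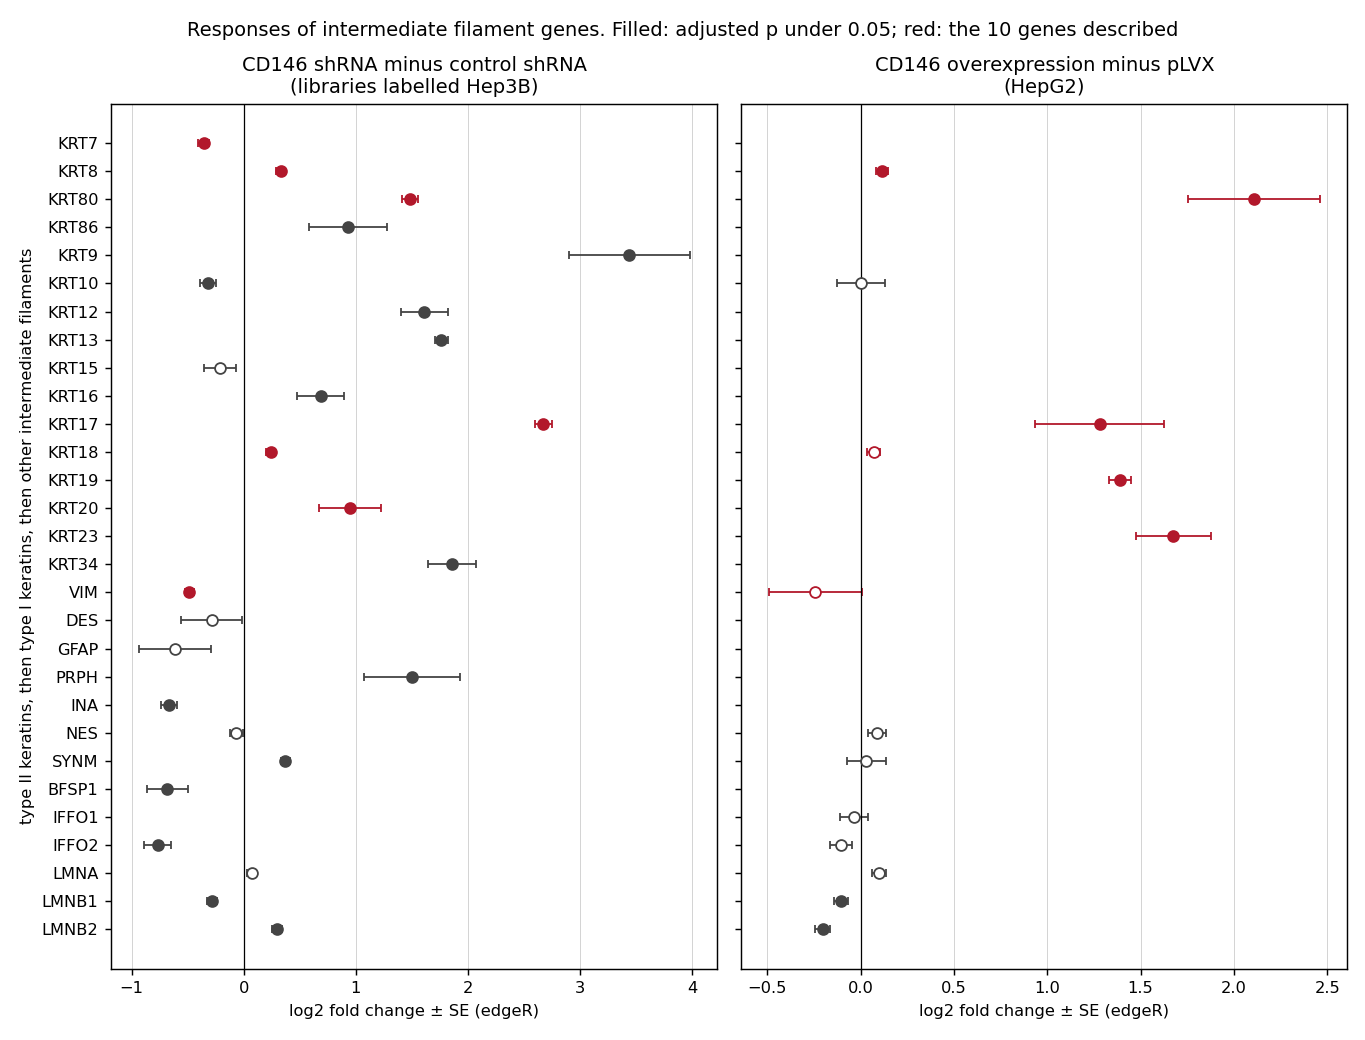
Log2 fold changes with their standard errors of the members (red) and of the other tested keratins and intermediate filament genes (grey) in both comparisons, CD146 shRNA against control shRNA in the libraries labelled Hep3B and CD146 vector against pLVX in HepG2. KRT17 and KRT80 lie above 0 in both, at 2.67 and 1.28 and at 1.48 and 2.11, while KRT7 and VIM lie below 0 with the CD146 shRNA.

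KRT8, KRT17 and KRT80 were called higher both on lowering CD146 in the libraries labelled Hep3B and on raising it in HepG2, where the filter fixed the direction of KRT17 and KRT80. Set on one scale as the response to higher CD146, KRT17 was 3.95 ± 0.32 higher on the log2 scale in HepG2 than in the libraries labelled Hep3B, KRT80 3.60 ± 0.32, KRT19 2.30 ± 0.78, KRT8 0.45 ± 0.06 and KRT18 0.32 ± 0.06, and VIM was -0.72 ± 0.22. These 6 of the 9 members tested were called in the 12-library contrast of the 2 responses, where 36.4% of all genes were called, 17.2% higher and 19.2% lower. KRT7, KRT20 and KRT23, each with few counts in 1 line, were not. The KRT19 value rests on 5 and 10 counts in the libraries labelled Hep3B and lost its call without control shRNA replicate 3 or CD146 shRNA replicate 1. KRT19 passed the filter of this fit only through HepG2. The KRT17 and KRT80 values rest on 27 and 19 counts in all with pLVX. The VIM value was -0.59 and no longer called without pLVX replicate 2.

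Keratin genes outside the 10 members also rose with the CD146 shRNA. Of the 46 others by symbol 8 passed the filter there, 6 were called higher (KRT9, KRT12, KRT13, KRT16, KRT34 and KRT86) and 1 lower (KRT10), and KRT15 was not called (-0.21 ± 0.14, adjusted p = 0.21). Their median log2 fold change was 1.27, and 26.8% of all genes were higher and 28.5% lower. KRT9, with 1 to 2 counts in each control library and 14 to 18 in each CD146 shRNA library, passed the filter only through the latter group, which fixes its direction. KRT86 was called with overlapping groups (0.93, edgeR adjusted p = 0.021) and lost its call under several alternatives, and it too needed the CD146 shRNA group to pass the filter. Without these 2 genes, 4 of 6 were higher and 1 lower, at a median of 1.15. KRT13 was the most abundant to rise, from 10.1, 11.0 and 10.3 FPKM to 33.2, 35.1 and 35.4 FPKM, a log2 fold change of 1.76 ± 0.06 (edgeR adjusted p = 2.4e-26). KRT34, a hair keratin, went from a mean of 0.817 to 2.91 FPKM (1.86, edgeR adjusted p = 1.0e-09). KRT12, the keratin of corneal epithelium, went from 0.583 to 1.75 FPKM (1.61, edgeR adjusted p = 2.7e-08). KRT16, a partner of KRT6 in wounded epidermis, went from 0.837 to 1.33 FPKM (0.69, edgeR adjusted p = 0.0053). KRT10, the keratin of the upper epidermis, fell from 13.0 to 10.2 FPKM (-0.32 ± 0.07, edgeR adjusted p = 3.2e-04). In HepG2 KRT10 was the only one of the 46 to pass the filter, and it was not called. Of all 55 keratin genes 34 never exceeded 3 counts in any library, and 14 reached 1 FPKM in some group.

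Most of these type I genes lie in 1 stretch of chromosome 17 (GRCh38 17:40654665-41624842), which holds 28 of them and was looked at after their values were seen. With the CD146 shRNA 9 of its keratin genes were tested, 7 higher and 1 lower, with a median log2 fold change of 1.61. Without KRT9 it was 6 higher and 1 lower of 8, at a median of 1.28. Both counts include the members KRT17 and KRT20, and over all genes 26.8% were higher and 28.5% lower. In HepG2 with the CD146 vector 4 were tested and 3 were higher, KRT17, KRT19 and KRT23, at a median of 1.34 (1.39 without KRT17). All 3 are members, picked with such values known, and over all genes 9.55% were higher and 10.3% lower. Of the 55 other genes in the stretch 1 was tested in each line, KRT10-AS1, and it was not called. The type II genes and KRT18 lie at 12:52168996-52952901. There 4 of 5 tested keratins were higher and 1 lower with the CD146 shRNA, at a median of 0.33, and 2 of 3 were higher in HepG2. These counts include KRT86 with the CD146 shRNA and KRT80 in HepG2. Each passed the filter only through the group where it was higher, which fixes its direction. All of the tested keratins there except KRT86 are members. KRT19 itself lies at 17:41523617-41528308 and overlaps no other gene, KRT17 at 17:41619441-41624842, KRT20 at 17:40875941-40885227 and KRT23 at 17:40922696-40937634, all on the minus strand.

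**Figure D4:**
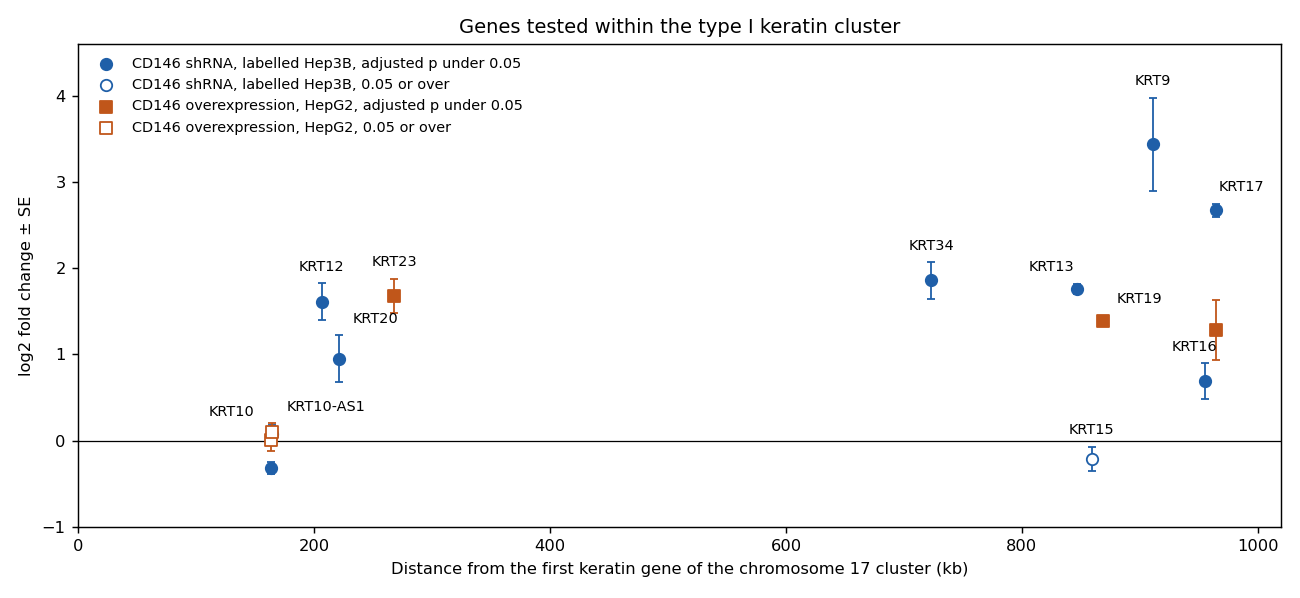
Log2 fold change with standard error of each tested gene of the chromosome 17 keratin stretch, against distance in kilobases from the start of its first keratin gene, for both comparisons. KRT9 (3.44) and KRT17 (2.67) lie highest with the CD146 shRNA, KRT10 (-0.32) and KRT15 (-0.21) lie below 0, and the points for HepG2 are KRT10, KRT17, KRT19, KRT23 and KRT10-AS1.

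Other intermediate filament genes moved in both directions. With the CD146 shRNA 11 of 16 passed the filter, 3 were higher (PRPH, SYNM and LMNB2), 4 lower (INA, BFSP1, IFFO2 and LMNB1) and 4 not called, with a median log2 fold change of -0.28. These counts stand beside 26.8% of all genes higher and 28.5% lower. PRPH passed the filter only through the CD146 shRNA group, which fixes its direction. INA, the neuronal filament protein internexin, went from 10.6 to 6.46 FPKM (-0.67 ± 0.07, edgeR adjusted p = 3.1e-10). SYNM, a large partner of vimentin and desmin filaments, went from 17.3 to 21.9 FPKM (0.37 ± 0.04, edgeR adjusted p = 1.5e-09). The nuclear lamins B moved in opposite directions, LMNB1 by -0.28 (edgeR adjusted p = 7.2e-07) and LMNB2 by 0.30 (edgeR adjusted p = 3.5e-07). In HepG2 none of 7 tested was higher, and LMNB2 (-0.20, edgeR adjusted p = 8.5e-05) and LMNB1 (-0.11, edgeR adjusted p = 0.035) were lower. Over all genes 9.55% were higher and 10.3% lower with the CD146 vector. The LMNB1 value lost its call without pLVX replicate 2 or 3, without CD146 vector replicate 1 or 3, and with DESeq2.

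Linkers, the plakins, plakoglobin and plakophilins that tie filaments to desmosomes and to other parts of the cytoskeleton, were spread in both directions. Of 20 such genes 18 were tested in each line. With the CD146 shRNA 4 were higher and 7 lower (median -0.05), and with the CD146 vector 7 were higher and 2 lower (median 0.12). Over all genes 26.8% were higher and 28.5% lower with the CD146 shRNA, and 9.55% and 10.3% with the CD146 vector. JUP, plakoglobin of desmosomes and adherens junctions, was higher in both (0.21, edgeR adjusted p = 5.0e-05, and 0.40 ± 0.06, edgeR adjusted p = 2.0e-07). DST, a plakin of hemidesmosomes and of other filament linkages, fell with the CD146 shRNA (-0.36 ± 0.04, edgeR adjusted p = 2.7e-09) and rose with the CD146 vector (0.48 ± 0.04, edgeR adjusted p = 5.4e-16). FAM83H, which binds keratins, followed the same directions (-0.54, edgeR adjusted p = 7.6e-10, and 0.20, edgeR adjusted p = 0.0080). PPL, periplakin, rose in HepG2 (0.76 ± 0.09, edgeR adjusted p = 2.0e-09), and the plakophilin PKP3 fell with the CD146 shRNA (-0.53, edgeR adjusted p = 1.8e-07), as did the desmosomal plakin DSP by a small amount (-0.14, edgeR adjusted p = 0.0032).

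Profiles over the 12 libraries most like those of the lineage markers were found among 12949 genes that reached 5 CPM in some group, by the root mean square difference of centred log2 CPM. Here CPM were counts over the unscaled library totals, with 0.5 added before the log2. The closest to KRT7 was GPD2 (0.121), followed by MAGEA1 (0.142) and MAP3K21 (0.152). For VIM it was KRT7 itself (0.186), then MAGEA1 (0.196) and TMEM47 (0.209). For KRT19 it was FBXL21P (0.259), CAVIN2 (0.299) and LINC02365 (0.303), with few counts of KRT19 in 6 of the libraries. KRT8 was nearest to HDAC8 (0.0601), ZNF731P (0.0613) and KIAA1671 (0.0715), and KRT18 to ESYT2 (0.0513), MICAL3 (0.0520) and TBL1X (0.0605). The 12 points fall into 2 lines, so that these likenesses mainly describe the difference between the lines.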

How the data were processed

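RNA was poly(A)-selected, per the labels' protocols. Reads were processed with cutadapt 1.9.1, HISAT2 2.2.1 and HTSeq 0.6.1, per the submitters' processing notes. Raw gene counts were deposited by the authors. The FPKM deposited by the authors carry 2 decimals. The genome build, annotation and strand setting are not given in the sources used here, and positions and transcripts come from GENCODE version 29 (GRCh38). The cholangiocyte list leaves out 2 markers that are not reported here.

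Counts were filtered (filterByExpr), TMM-scaled and tested with edgeR 4.0.16 in R 4.3.3, with Benjamini-Hochberg adjustment over all genes and a threshold of 0.05. Each perturbation was fitted within its line, and the lines and the difference of responses over all 12 libraries. Levels, shares and sums are in FPKM, both between genes and within a line, and FPKM is not TMM-scaled. TMM-scaled CPM was used for MCAM and for the overlap of groups within a line. For the nearest profiles it was CPM over unscaled totals. Markers, families and the 10 members were chosen with earlier results of these data known. Genes named are the members, family genes of at least 1 FPKM in some group, and the 3 nearest profiles of 5 members. KRT9, KRT86, PRPH, KRT10-AS1 and single list markers were named after their values were seen. Counts were also simulated with the same spread setting for every gene, which real genes need not share. On such counts for 16696 genes the knockdown test recovered 86% of log2 changes of 1 and 76% of changes of 0.5. For overexpression it was 90% and 68% over 15099 genes. False calls made up 5.81% and 5.95% of the calls in the 2 tests. Alternatives were DESeq2 1.42.0, its size factors, no filter, limma 3.58.1 on FPKM, a replicate block, other sets of libraries in the fit, and each library left out.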

Additional observations from a re-analysis of the deposited data

Results flagged for a closer look

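For 6 members the response to higher CD146 differed between the lines in the 12-library contrast at an adjusted p under 0.05 (edgeR), where 36.4% of all genes did. The difference, HepG2 minus the libraries labelled Hep3B on the log2 scale, was 3.95 for KRT17, 3.60 for KRT80, 2.30 for KRT19, 0.45 for KRT8, 0.32 for KRT18 and -0.72 for VIM. The KRT19 value rests on 5 and 10 counts in the 2 groups labelled Hep3B, and this gene passed the filter only through HepG2. The KRT17 and KRT80 values rest on 27 and 19 counts in all with pLVX. Line, medium and method of perturbation cannot be told apart in these values.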

How the results depend on the processing

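Of 461 alternative values of the members' fold changes 445 kept their side of the threshold, 8 lost a call and 8 gained one, and 0 changed sign. Of 819 for the other family genes 771 kept their side, 39 lost a call and 9 gained one, and 23 values of 10 fold changes changed sign, none of them called. Genes called in HepG2 with the CD146 vector were 3037, against 1839 with DESeq2, 1399 with limma on log2(FPKM + 0.1) and 1382 with limma on log2(FPKM + 1), and 48.1% of them were higher against 73.5% and 73.4% with limma. In that comparison the limma median over all genes shifted by 0.07 and 0.04 with the 2 pseudocounts. Between the lines 47.8% were higher against 36.4% and 36.3% with limma, whose median over all genes shifted by -0.26 with the smaller pseudocount. The cause was not tested. With limma KRT17 in HepG2 was not called (1.09 and 0.35 on the 2 scales) and KRT18 in HepG2 was called (0.14 on both), as were KRT7, KRT20 and KRT23 in the difference of responses. Leaving out 1 library gave 8645 to 8894 genes called for the CD146 shRNA, 2262 to 2675 for the CD146 vector, 15332 to 15744 between the lines and 6251 to 6631 for the difference of responses. Members called were then 7 in every case for the CD146 shRNA, 3 to 5 for the CD146 vector (3 without pLVX replicate 3), 9 between the lines and 5 to 6 for the difference.

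Same-numbered libraries of 2 groups did not deviate together (correlations of 0.106, 0.050 and 0.032 in the libraries labelled Hep3B, and -0.043, -0.044 and 0.018 in HepG2), so the numbers were not taken as pairs. With a replicate block the genes called were 9543, 2947, 15674 and 6847 in the same 4 comparisons. A floor of 3 counts limits what can be said of KRT7, KRT20 and KRT81 in HepG2 and of KRT19, KRT23 and KRT81 in the libraries labelled Hep3B.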
